A study of Mus musculus with 36 samples.

Results

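Acute-phase proteins are secreted in quantity when interleukin-1 or interleukin-6 signals tissue injury or infection, mostly by the liver but also by connective tissue cells. 10 such genes are described here, namely the serum amyloid A genes *Saa1*, *Saa2* and *Saa3*, the lipocalin *Lcn2*, the haptoglobin gene *Hp*, the long pentraxin *Ptx3*, the serine protease inhibitors *Serpina3n* and *Serpina3g*, and the complement genes *C3* and *Cfb*. They were taken by gene name from the deposited tables, where all 10 of 10 names were found among 53421 genes in the count table and 52416 in the TPM table. C3 is the component on which the complement pathways converge, and factor B, the product of *Cfb*, forms the alternative pathway C3 convertase with it. IL-1β signals through NF-κB and MAP kinases, and C/EBP factors and IκBζ (*Nfkbiz*) act further down on many acute-phase promoters.

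All libraries derive from 1 mouse cell line of fibroblastic chondrocytes that grows under conditional immortalisation and was released from it, without IFN-γ, for the experiment. Cells received a non-targeting siRNA pool (NT) or a pool against *Ift88* (IFT88siRNA), a gene for a component of intraflagellar transport that cells need to build a primary cilium. The labels give the siRNA at 50 nM and the methods at 10 nM. Cells were then kept in medium alone (0 h) or exposed to IL-1β (10 ng/ml), and harvested after 1, 2, 4, 8 and 24 h. Each of the 12 conditions has 3 replicates, which gives 36 poly(A) libraries. The labels do not say that replicates were separate cultures, so the p-values measure the spread between these libraries, which may be technical.

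Total counts were 19337022 to 26873538 per NT library and 21879056 to 38304127 per IFT88siRNA library. *Ift88* was 3.58 to 7.93 TPM in NT and 0.773 to 2.99 TPM in IFT88siRNA, and was lower at 6 of 6 time points, by 1.47 to 2.12 on the log2 scale (largest adjusted p = 0.00190). The libraries of a condition correlated with their partners at 0.992 to 0.996 on log2 CPM. Replicate 3 of IFT88siRNA at 8 h held more *Ift88* (87 counts, 2.90 TPM) than its partners (34 and 46 counts, 0.863 and 0.911 TPM). Its counts differed from theirs with a chi-square per degree of freedom of 9.06 and 10.0, the latter the highest of all replicate pairs. Replicates 2 and 3 of NT at 2 h came close, at 9.88. The siRNA comparisons of *Saa3*, *Ptx3* and *Serpina3n* at 8 h are therefore also given without it. Those of other genes at 8 h include it. Of 12 chondrocyte and fibroblast markers, 10 averaged at least 1 TPM, with *Sox9* at a median of 11.6 TPM and *Col1a2* at 779 TPM, whereas the cartilage proteoglycan *Acan* was near 0 (median 0.0444 TPM). Hepatocyte markers summed to at most 3.51 TPM in any library, with *Alb* at no more than 0.575 TPM. The 8 macrophage markers summed to at most 15.7 TPM, with *Cd68* at 4.32 to 12.25 TPM and *Lyz2* at 0.686 to 4.38 TPM, while *Adgre1* and *Ptprc* did not exceed 0.0406 and 0.161 TPM. Neutrophil markers summed to at most 33.9 TPM in NT and 24.6 TPM in IFT88siRNA, with *S100a8* at 0 to 24.3 TPM, *Camp* at up to 9.78 TPM and *Ly6g* at up to 1.09 TPM, while *S100a9* and *Elane* stayed at or below 0.231 and 0.209 TPM. The part of such cells in the results was not tested.

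In GRCm38 *Saa3* (chr7:46711998-46715700), *Saa1* (chr7:46740497-46742980) and *Saa2* (chr7:46751790-46754313) lie close together on chromosome 7. *Serpina3g* (chr12:104236245-104241939) and *Serpina3n* (chr12:104406729-104414329) are both on chromosome 12. *Cfb* (chr17:34856374-34862518) and *C3* (chr17:57203970-57228136) are both on chromosome 17, *Lcn2* is at chr2:32384633-32388252, *Ptx3* at chr3:66219910-66225805 and *Hp* at chr8:109575128-109579172.

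Promoter sequence was read for 8 of the 10 genes from RefSeq (GRCm38.p6), as 300 bases around the annotated start on the strand of the gene. 5 are shown because they span the range of time courses described below, from the early *Ptx3* to the late *C3*. Capitals mark matches, on either strand, to TTNNGCAA (a C/EBP half-site spelling chosen after the sequences were seen) or to the NF-κB consensus.
Saa3 (chr7:46715627-46715926, minus strand): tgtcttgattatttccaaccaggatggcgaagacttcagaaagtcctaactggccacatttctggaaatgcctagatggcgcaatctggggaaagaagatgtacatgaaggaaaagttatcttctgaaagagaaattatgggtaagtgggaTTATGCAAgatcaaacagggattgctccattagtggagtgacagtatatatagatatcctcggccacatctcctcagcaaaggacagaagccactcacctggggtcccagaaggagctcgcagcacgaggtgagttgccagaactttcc
Lcn2 (chr2:32387690-32387989, minus strand): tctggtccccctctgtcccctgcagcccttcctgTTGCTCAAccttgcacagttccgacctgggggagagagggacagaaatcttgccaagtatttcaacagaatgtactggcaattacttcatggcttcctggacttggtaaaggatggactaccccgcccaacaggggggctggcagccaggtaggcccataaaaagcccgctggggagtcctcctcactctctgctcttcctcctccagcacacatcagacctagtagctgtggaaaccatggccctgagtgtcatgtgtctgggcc
C3 (chr17:57228087-57228386, minus strand): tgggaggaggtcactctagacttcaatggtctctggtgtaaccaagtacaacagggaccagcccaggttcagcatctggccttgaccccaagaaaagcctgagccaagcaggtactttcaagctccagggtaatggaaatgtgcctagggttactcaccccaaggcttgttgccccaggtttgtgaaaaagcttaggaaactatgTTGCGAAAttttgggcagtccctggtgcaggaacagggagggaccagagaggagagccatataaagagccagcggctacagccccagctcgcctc
Serpina3g (chr12:104235897-104236196, plus strand): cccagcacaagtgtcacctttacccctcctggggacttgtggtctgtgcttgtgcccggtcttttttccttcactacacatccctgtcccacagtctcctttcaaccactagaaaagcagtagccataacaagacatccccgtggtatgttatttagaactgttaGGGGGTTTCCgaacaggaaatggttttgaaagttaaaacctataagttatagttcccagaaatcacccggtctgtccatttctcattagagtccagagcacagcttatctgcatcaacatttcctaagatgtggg
Ptx3 (chr3:66219637-66219936, plus strand): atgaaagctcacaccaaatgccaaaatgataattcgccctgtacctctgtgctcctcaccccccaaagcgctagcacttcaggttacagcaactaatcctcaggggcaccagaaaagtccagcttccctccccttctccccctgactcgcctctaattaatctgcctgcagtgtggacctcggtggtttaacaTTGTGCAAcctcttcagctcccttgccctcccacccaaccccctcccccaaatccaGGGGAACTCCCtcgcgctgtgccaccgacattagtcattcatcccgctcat

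TTNNGCAA was present in 6 of the 8 promoters (*Saa1*, *Saa2*, *Saa3*, *Lcn2*, *C3* and *Ptx3*) and in 10.8% of 32851 promoters of the same length. The NF-κB consensus was present in 2 of 8 (*Ptx3* and *Serpina3g*) and in 8.46% of all. A looser spelling, TTNNGNAA, was present in 8 of 8 and in 40.7% of all. The STAT spelling TTCNNNGAA was present in 1 of 8 (*Serpina3g*) and in 8.30% of all, and the AP-1 spelling TGANTCA in 0 of 8 and in 7.81% of all. In *Ptx3* the 2 marked stretches did not overlap, and the NF-κB stretch held overlapping matches on both strands. The promoters of *Saa1* and *Saa2* were 95.4% identical over their alignment, and no other pair of members exceeded 54.2%. These matches describe the letters in the window and no binding was measured.

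**Figure D1:**
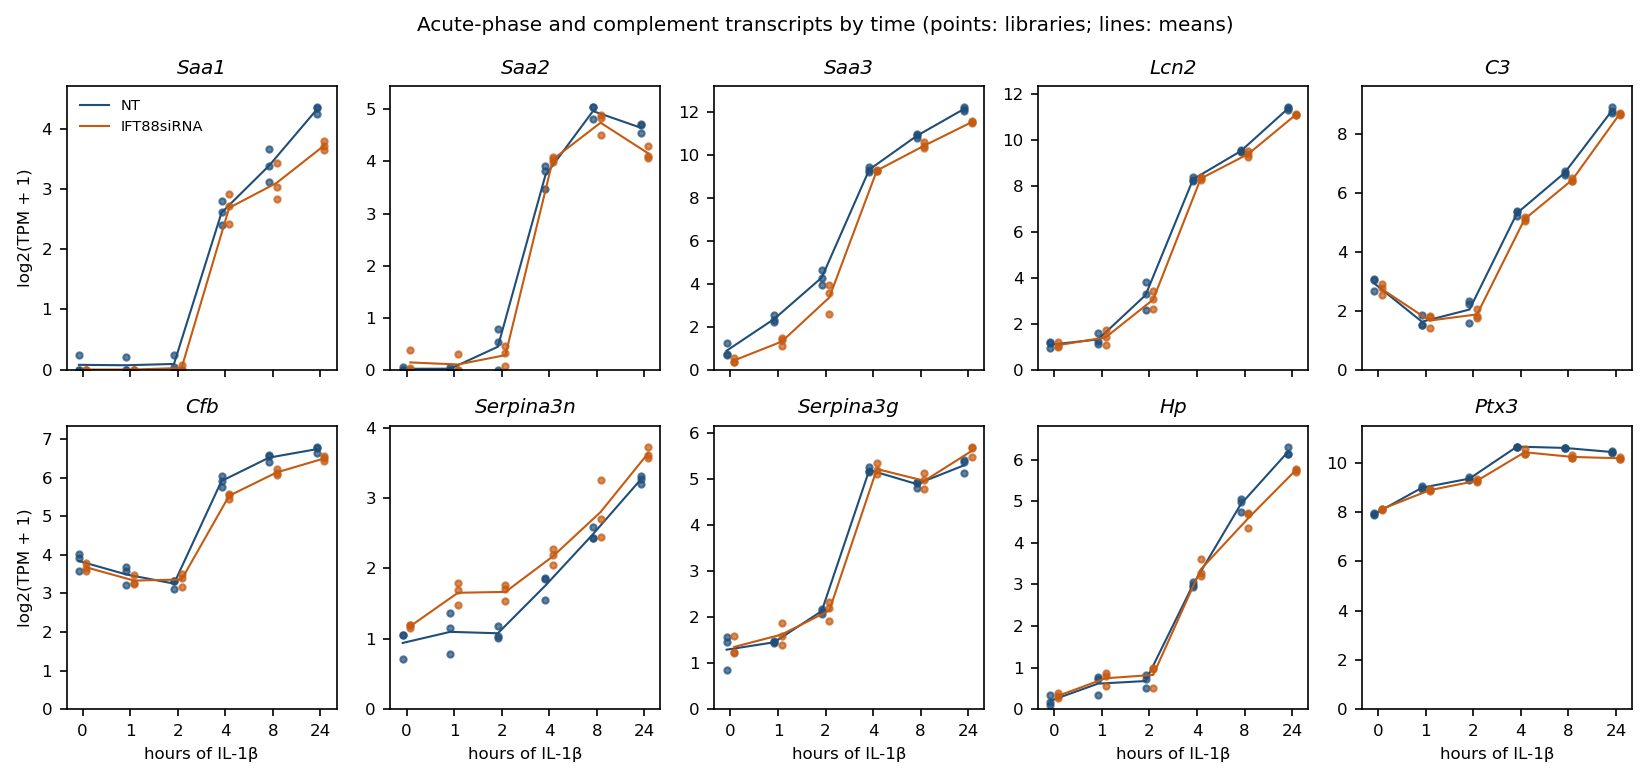
Levels of the 10 genes as log2(TPM + 1) against hours of IL-1β (categories, not to scale), with NT in blue and IFT88siRNA in orange, points for libraries and lines for means of 3. Every gene ended higher at 24 h than at 0 h, *C3* dipped at 1 and 2 h, and *Ptx3* and *Saa2* were highest before 24 h.

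The first comparison asks when IL-1β changes these transcripts in NT cells. All 10 changed over the time course and all 10 were higher at 24 h than at 0 h, where 50.0% of 16048 tested genes changed over the course. In IFT88siRNA all 10 changed too, beside 48.2% of 16129 genes. A gene was called when its Benjamini-Hochberg adjusted p was under 0.05 and its fold over 1.5. At 1 h, 3 members were higher (*Saa3*, *Hp* and *Ptx3*; 9.22% of all genes were) and 1 was lower (*C3*; 9.45%). At 2 h, 6 were higher (13.0% of all) and *C3* alone was lower (14.3%). At 4, 8 and 24 h all 10 were higher, when 16.3%, 11.8% and 6.61% of all genes were. The median log2 change of the members at 24 h was 6.90, against −0.02 over all genes. In these bulk libraries a change in the number of cells that express a gene and a change in RNA per cell cannot be told apart.

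The serum amyloid A genes started near 0. *Saa3*, which is made outside the liver in mice, was at 5, 2 and 1 counts in the NT libraries at 0 h (1.32, 0.666 and 0.601 TPM). It reached 591, 621 and 697 TPM at 4 h and 4793, 4263 and 4535 TPM at 24 h, the highest TPM of the 10 genes. No library at 4 h or later overlapped any library at 0 h. With 83801 pooled counts at 24 h and 8 at 0 h, the ratio per library total was 8570 (exact 95% interval 4350 to 19800, counting error only).

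*Saa1* and *Saa2*, whose products circulate on high-density lipoprotein, were far lower. *Saa1* was at 1, 1 and 0 counts at 0 h in NT and 166, 151 and 179 at 24 h, or 19.5, 17.96 and 19.2 TPM. *Saa2* was at 0, 1 and 0 counts at 0 h and peaked at 8 h, with 31.9, 27.2 and 32.1 TPM, before 25.2, 24.98 and 22.3 TPM at 24 h. *Saa1* gained between 8 and 24 h (log2 change 0.96, SE 0.15, adjusted p = 1.33e-05) while *Saa2* did not (−0.40, SE 0.13, adjusted p = 0.0174, under 1.5-fold). Their transcripts are 93.5% identical but share 2 of 535 windows of 75 bases, so few exact reads of that length would fit both. Exchange of reads between them was not tested, and would not alter their sum. The summed level was 0.0693 ± 0.120 TPM at 0 h, 17.6 ± 2.47 TPM at 4 h and 43.0 ± 1.597 TPM at 24 h (SD, n = 3 NT libraries). The pooled-count ratio of 24 h to 0 h was 203 for *Saa1* (55.9 to 1680) and 462 for *Saa2* (82.6 to 18300). In IFT88siRNA, where all 3 *Saa1* counts at 0 h were 0, *Saa1* was at least 108-fold higher at 24 h (3 counts over the group as floor).

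*Lcn2*, a lipocalin that binds bacterial siderophores, rose from 1.20, 0.9002 and 1.28 TPM at 0 h to 2805, 2720.4 and 2567 TPM at 24 h in NT. It had not changed detectably at 1 h (log2 change 0.52, SE 0.51, adjusted p = 0.406) and was higher from 2 h (3.29, SE 0.32, adjusted p = 2.83e-09). At 24 h the change was 11.31 (SE 0.17, adjusted p = 9.41e-25). The level at 8 h was 27.3% of that at 24 h, so most of the gain came after 8 h.

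*Hp* encodes haptoglobin, which binds free haemoglobin. Its NT libraries held 3, 4 and 1 counts at 0 h and 1537, 1314 and 1445 at 24 h, or 78.5, 69.4 and 69.2 TPM. The pooled ratio was 439 (223 to 1020). It was called higher at 1 h (log2 change 1.59, SE 0.58, adjusted p = 0.0254) on 5, 7 and 10 counts, a call lost without replicate 3 (0.95, adjusted p = 0.270). Its gain between 4 and 8 h (1.99, SE 0.11, adjusted p = 3.15e-13) was the largest of the 10 genes over that step.

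*Ptx3*, a pentraxin that binds microbes and complement C1q, differed from the others in starting high. It was at 233, 249 and 244 TPM at 0 h in NT and was higher at 1 h, at 499, 529 and 497 TPM (log2 change 1.27, SE 0.05, adjusted p = 5.13e-17). It peaked at 4 h with 1622, 1624 and 1615 TPM, and was lower at 8 h than at 4 h (−0.22, SE 0.04, adjusted p = 0.000224) and lower at 24 h than at 8 h (−0.16, SE 0.04, adjusted p = 0.00428), both under 1.5-fold. At 24 h it was at 1407, 1425 and 1343 TPM.

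The serpins followed different courses. *Serpina3g*, an intracellular inhibitor of cysteine proteases, went from 1.95, 1.76 and 0.794 TPM at 0 h to 34.5, 37.0 and 35.1 TPM at 4 h. It then stood at 29.2, 29.7 and 26.9 TPM at 8 h (−0.45 against 4 h, SE 0.07, adjusted p = 9.19e-06) and at 40.2, 41.2 and 34.0 TPM at 24 h (0.46 against 8 h, SE 0.07, adjusted p = 6.26e-06), both steps under 1.5-fold. *Serpina3n*, the secreted antichymotrypsin-like serpin, was at 1.07, 0.642 and 1.084 TPM at 0 h and 8.92, 8.67 and 8.18 TPM at 24 h. It was not called at 1 or 2 h and rose at each step from 2 h on, by 1.10, 0.77 and 0.91 on the log2 scale. It had the lowest TPM of the 10 genes at 24 h in NT, but not the lowest counts per kilobase of exon (137, against 66.7 for *Saa1* and 74.8 for *Saa2*).

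The complement genes fell or held before they rose. *C3* was at 422, 370 and 345 counts at 0 h in NT, at 118, 140 and 103 at 1 h and at 203, 156 and 213 at 2 h. The fall at 1 h was 1.47 on the log2 scale (log2 change −1.47, SE 0.12, adjusted p = 4.71e-10), and IFT88siRNA had the same direction (−1.38, SE 0.12, adjusted p = 2.29e-09). By 24 h *C3* was at 38497, 34133 and 35803 counts, or 478, 436 and 412 TPM (6.34, SE 0.09, adjusted p = 7.46e-25), and the step from 8 to 24 h (2.16, SE 0.07) was the largest of the 10 genes over that interval.

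For *Cfb*, 2246 of 2825 exonic bases (79.5%) are shared with the read-through gene *Gm20547* on the same strand, and reads overlapping more than 1 gene are left out by the counting defaults, so its counts are low for its level. In TPM it was 14.2, 10.9 and 15.3 at 0 h in NT, 7.67, 9.06 and 8.97 at 2 h, and 111, 109 and 98.3 at 24 h. The counts at 2 h did not differ from 0 h (log2 change 0.04, SE 0.40, adjusted p = 0.940), whereas limma on log2(TPM + 1) called *Cfb* lower at 2 h (−0.59, adjusted p = 0.00133). Both gave a rise at 4, 8 and 24 h, of 4.46 (SE 0.21) at 24 h in counts and 2.90 on the log2(TPM + 1) scale.

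**Figure D2:**
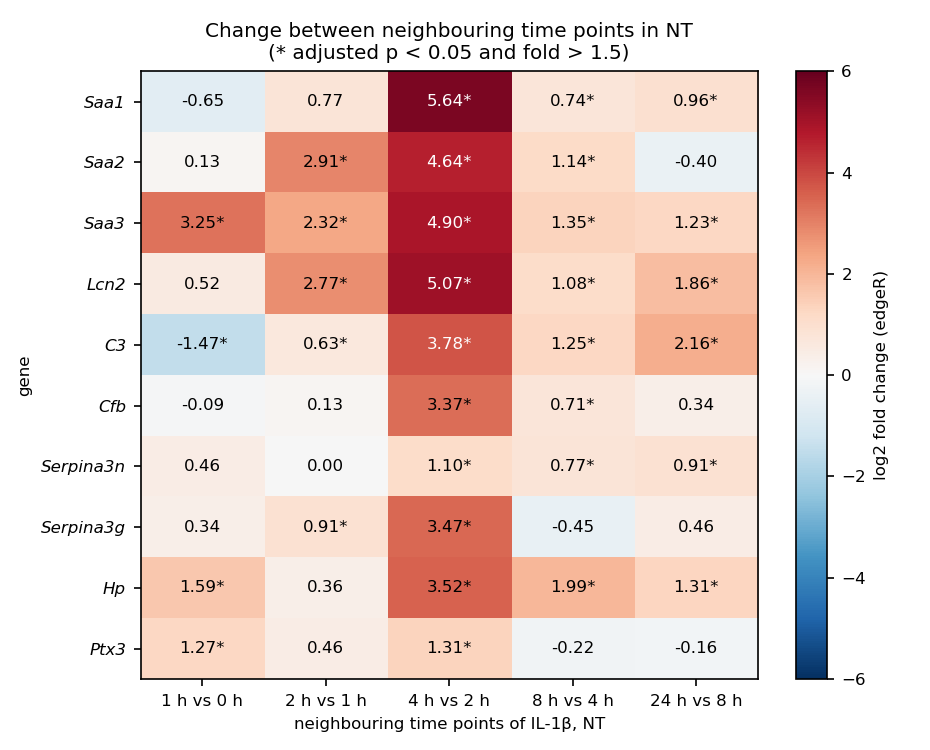
Log2 fold change of each gene between neighbouring time points in NT (edgeR, 3 libraries a time point), coloured from blue (lower) to red (higher), with an asterisk for adjusted p < 0.05 and fold over 1.5. The step from 2 to 4 h carries an asterisk in all 10 rows, from 1.10 for *Serpina3n* to 5.64 for *Saa1*.

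The step from 2 to 4 h was called in all 10 genes, beside 16.6% of all genes called higher. Between 1 and 2 h 5 members were higher (*Saa2*, *Saa3*, *Lcn2*, *C3* and *Serpina3g*; 6.08% of all), between 4 and 8 h 8 were (all but *Serpina3g* and *Ptx3*; 7.01%) and between 8 and 24 h 6 were (*Saa1*, *Saa3*, *Lcn2*, *C3*, *Serpina3n* and *Hp*; 3.15%). Single libraries decided some calls. That of *Saa2* between 1 and 2 h was lost without any 1 of the replicates (adjusted p 0.0620 to 0.120), and that of *C3* over the same step without replicate 1 or 3 (0.57 and 0.50, under 1.5-fold). Between 4 and 8 h *Cfb* and *Serpina3n* were under 1.5-fold without replicate 1 (0.53 and 0.58). Together the 10 genes took 0.0247% ± 0.000486 of all counts at 0 h and 0.524% ± 0.0236 at 24 h in NT (SD, n = 3), and their TPM summed to 266.6 ± 5.66 at 0 h and 9330.2 ± 377 at 24 h. At 24 h the order in TPM was *Saa3*, *Lcn2*, *Ptx3*, *C3*, *Cfb*, *Hp*, *Serpina3g*, *Saa2*, *Saa1*, *Serpina3n*, and the ranges of the 3 NT libraries overlapped for no pair of neighbours. That order is one of TPM estimates, since counts per kilobase of exon were highest for *Ptx3*, then *Lcn2*, *Saa3* and *C3*.

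The pattern over the 12 conditions was compared by Pearson's r of mean log2 CPM, as a description, since the conditions share libraries and depth. The non-member most like each gene was *Saa4* for *Saa1* (r = 0.997) and *Cfb* (0.993), *Bst1* for *Saa2* (0.995), *Mettl7b* for *Saa3* (0.993), *Serpina3i* for *Lcn2* (0.991), *Nadk* for *C3* (0.995), *Nek6* for *Hp* (0.994), *Il13ra1* for *Serpina3g* (0.991), *Acod1* for *Ptx3* (0.992) and *Ssbp2* for *Serpina3n* (0.980). Among the members, *Ptx3* and *C3* were least alike (0.714) and *Saa1* and *Cfb* most alike (0.996). Up to 2 h, however, *Saa1* had 0 to 2 counts a library and *Cfb* 4 to 14, so their early course is near the floor of the counts. In NT the TPM of *Cfb* was lower at 2 h than at 0 h, which its counts did not show.

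The second comparison asks whether loss of *Ift88* alters these transcripts. Over the whole time course 5 of 10 members were called between IFT88siRNA and NT (*Saa1*, *Saa3*, *Hp*, *Cfb* and *Serpina3n*), beside 5.19% of 16710 genes. For *Hp* the largest log2 change was 0.60, higher in IFT88siRNA and opposite to its direction at 8 and 24 h. *Hp* at 0 h and *Cfb* at 1 h had too few counts to be tested alone. At the time points tested alone both genes were under 1.5-fold. Of the members not called, *Ptx3* (largest log2 change −0.34, adjusted p = 4.74e-06) and *Serpina3g* (0.35, adjusted p = 0.0121) stayed under 1.5-fold. Leaving out 1 replicate ended the call over the course for *Cfb* (any replicate, adjusted p 0.0565 to 0.181), *Saa1* (replicate 1 or 2, adjusted p = 0.333 and 0.0728) and *Hp* (replicate 1, adjusted p = 0.125), and left those of *Saa3* and *Serpina3n*. At 24 h, 8 of 10 had an adjusted p under 0.05, beside 8.66% of 15223 genes: *Saa1*, *Saa2*, *Saa3*, *Lcn2*, *Hp* and *Ptx3* were lower in IFT88siRNA and *Serpina3g* and *Serpina3n* were higher. With all 36 libraries in 1 model 6 did (*Lcn2* and *Saa2* had adjusted p = 0.0807 and 0.0909), and without replicate 2 only *Saa1*, *Saa3* and *Hp* did (adjusted p = 0.0333, 0.000791 and 0.0117). The number was 5 without replicate 1, and 6 with limma on log2(TPM + 1), or 2 with no filter. Only *Saa1* also passed 1.5-fold, beside 1.15% of all genes. The TPM ranges of the groups were apart for 9 of 10 members at 24 h, all but *C3*, and for 22.8% of genes tested.

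**Figure D3:**
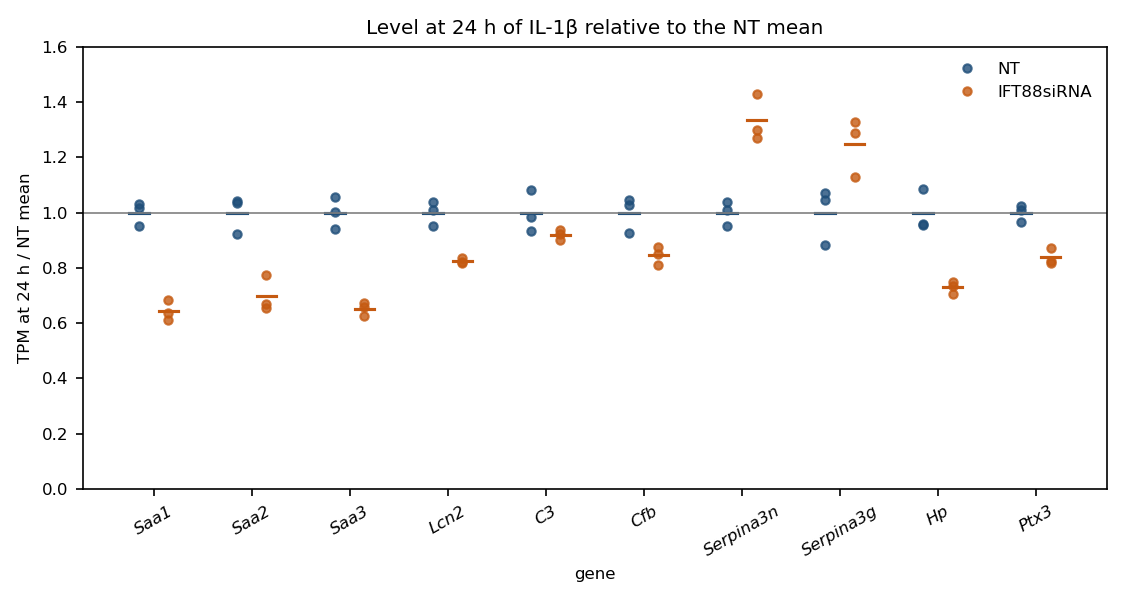
TPM at 24 h of IL-1β divided by the NT mean of the same gene, with a point per library and a bar for the mean of 3, NT in blue and IFT88siRNA in orange. The IFT88siRNA means ran from 0.645 (*Saa1*) to 1.33 (*Serpina3n*), and the points of the groups overlap for *C3* only.

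At 24 h *Saa3* was at 2833, 3039.6 and 2987 TPM in IFT88siRNA against 4793, 4263 and 4535 TPM in NT. Every IFT88siRNA library was below every NT library. The log2 change in counts was −0.58 (SE 0.07, adjusted p = 5.40e-05), a ratio of 0.667 that lies at the 1.5-fold limit and just missed it, while limma on log2(TPM + 1) gave −0.62 and a call. Leaving out 1 replicate gave −0.46 to −0.65. *Saa3* was also lower at 8 h, at 1374, 1524 and 1255 TPM against 1938, 1746 and 1997 (−0.46, SE 0.08, adjusted p = 0.00937, under 1.5-fold; −0.39 and adjusted p = 0.00234 without IFT88siRNA replicate 3). At 4 h there was no detectable difference (−0.05, SE 0.06, adjusted p = 0.720). At 2 h *Saa3* was not called, at 10.9, 4.95 and 14.2 TPM against 18.2, 14.5 and 23.6 (−0.83, adjusted p = 0.172). With all 36 libraries in 1 model, or with the replicate block, it was called lower at 2 h. At 1 h it was 8, 13 and 5 counts against 18, 31 and 21 (−1.69, SE 0.33, adjusted p = 0.00221; 2.66% of all genes were called at 1 h).

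*Saa1* was lower in the same libraries, at 12.9, 11.6 and 12.05 TPM at 24 h against 19.5, 17.96 and 19.2 (−0.64, SE 0.11, adjusted p = 0.00155). *Saa2* was at 15.8, 16.2 and 18.7 TPM against 25.2, 24.98 and 22.3 (−0.40, SE 0.12, adjusted p = 0.0449, under 1.5-fold; 0.167 without replicate 1 and 0.421 without replicate 2), and the sum of both was 29.1 ± 1.52 against 43.0 ± 1.597 TPM (SD, n = 3). At 4 h neither differed by the test, and *Saa2* TPM was higher in every IFT88siRNA library (15.96, 14.9 and 15.6 against 10.0, 13.1 and 14.2; 0.41, SE 0.16, adjusted p = 0.171).

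*Hp*, *Lcn2* and *Ptx3* were lower at 24 h by smaller amounts than *Saa1* and *Saa3*. *Hp* was at 53.2, 51.1 and 54.1 TPM against 78.5, 69.4 and 69.2 (−0.42, SE 0.07, adjusted p = 0.00130). *Lcn2* was at 2210.1, 2219 and 2249 TPM against 2805, 2720.4 and 2567 (−0.25, SE 0.06, adjusted p = 0.0135). *Ptx3* was at 1138, 1148 and 1214 TPM against 1407, 1425 and 1343 (−0.23, SE 0.06, adjusted p = 0.0221). For all 3 genes the libraries of the groups did not overlap. Without replicate 1 the adjusted p was 0.150 for *Lcn2* and 0.161 for *Ptx3*, and without replicate 2 it was 0.262 and 0.435.

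*Ptx3* went the other way before IL-1β, at 273, 282 and 281 TPM in IFT88siRNA and 233, 249 and 244 in NT at 0 h (0.27, SE 0.04, adjusted p = 0.000138). None of the 6 members tested at 0 h was called, where 2.23% of genes were. *Saa1*, *Saa2*, *Saa3* and *Hp* had too few counts to be tested at 0 h. At 8 h *Ptx3* was lower (−0.36, SE 0.06, adjusted p = 0.00699), as 1278, 1172 and 1189.9 TPM against 1563, 1566 and 1560.2. Without IFT88siRNA replicate 3 the log2 change at 8 h was −0.33 (adjusted p = 0.00164).

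The serpins were higher in IFT88siRNA. *Serpina3n* was at 2.47, 2.22 and 1.78 TPM at 1 h against 0.712, 1.57 and 1.23 in NT (0.85, SE 0.22, adjusted p = 0.0134), and at 2.26, 2.38 and 1.90 against 1.01, 1.28 and 1.05 at 2 h (0.97, SE 0.19, adjusted p = 0.0200). It alone was called of 8 members tested at 2 h, where 0.496% of genes were. Without replicate 1 both calls were lost (log2 changes of 0.53 at 1 h and 0.87 at 2 h, with adjusted p = 0.190 and 0.437), and limma on log2(TPM + 1) made neither. At 24 h it was at 11.2, 12.3 and 10.9 TPM against 8.92, 8.67 and 8.18 (0.43, SE 0.08, adjusted p = 0.00319, under 1.5-fold). *Serpina3g* passed the adjusted p at 24 h alone, at 49.6, 51.0 and 43.4 TPM against 40.2, 41.2 and 34.0 (0.35, SE 0.07, adjusted p = 0.00416, under 1.5-fold). Without replicate 2 the adjusted p at 24 h was 0.121 for *Serpina3n* and 0.129 for *Serpina3g*.

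Neither complement gene passed the adjusted p in the fits of single time points. With all 36 libraries in 1 model *Cfb* passed it at 8 h, under 1.5-fold. *C3* passed the test at no time point, with log2 changes from −0.20 at 8 h to −0.11 at 2 h and the smallest adjusted p of 0.0994. *Cfb* was called over the whole course (largest log2 change −0.76, adjusted p = 0.0137) but at no time point tested alone (−0.52 at 8 h, adjusted p = 0.0761). At 1 h, with 4 to 11 counts a library, it was not tested alone, and the TPM ranges of the groups overlapped. Its TPM was lower in every IFT88siRNA library at 4, 8 and 24 h. At 24 h it was at 86.1, 90.3 and 93.1 TPM against 111, 109 and 98.3. No member was called at 4 or 8 h, where 0.432% and 0.692% of genes were. Without IFT88siRNA replicate 3, *Serpina3n* was called at 8 h (0.65, adjusted p = 0.0148). DESeq2 and limma on log2(TPM + 1) also called 0 members at 0, 4 and 8 h. An absent call does not show that the levels were equal.

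**Figure D4:**
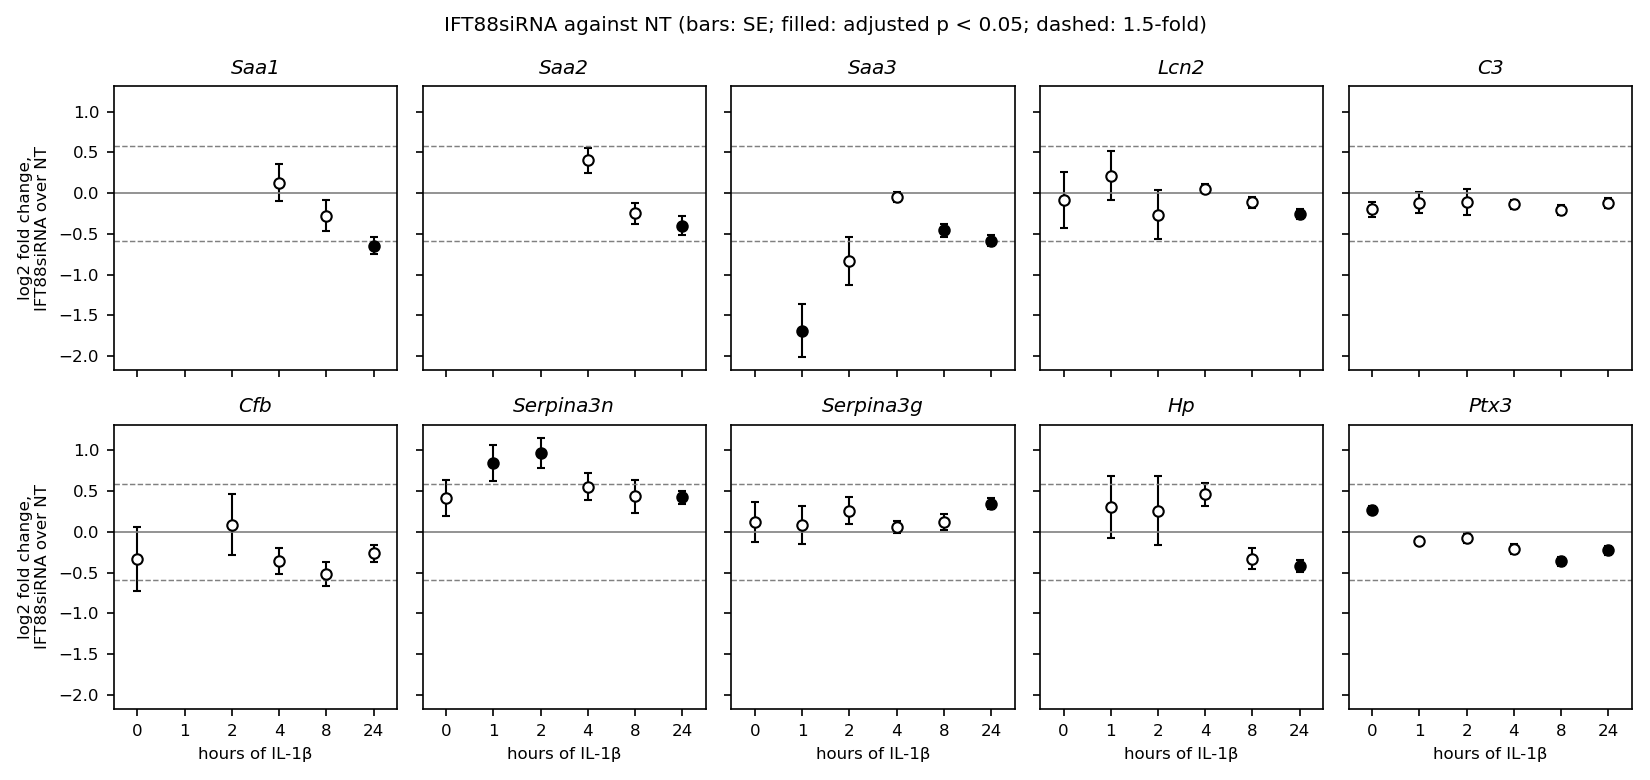
Log2 fold change of IFT88siRNA over NT by time for each gene (edgeR, 3 libraries against 3), with SE bars, filled points for adjusted p < 0.05 and dashed lines at 1.5-fold. Points are absent where the counts were too low to test. At 24 h 6 genes have filled points below 0 and 2 above.

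The third comparison asks whether the change from 0 h differs between the siRNA groups. It was called for 3 of 10 members (*Ptx3*, *Saa3* and *Hp*), beside 1.20% of 16710 genes. For *Ptx3* the largest difference, at 8 h, was −0.61 (SE 0.09, adjusted p at that time = 7.92e-05), with a higher level at 0 h and a lower one at 8 h in IFT88siRNA. For *Saa3* and *Hp* the 0 h reference is 1 to 6 counts a library, and no single time point passed. Their sign changed when 1 replicate was left out, to −1.50 (replicate 1) and −1.01 (replicate 2) for *Saa3* and to 0.63 (replicate 3) for *Hp*. Without replicate 2 *Ptx3* was under 1.5-fold (−0.58, adjusted p = 0.00437), as it was without IFT88siRNA replicate 3 at 8 h (−0.58, adjusted p = 0.000411) and with limma on log2(TPM + 1) (−0.57). With 4 h as the reference in place of 0 h, chosen after seeing the data, the difference at 24 h was −0.88 for *Hp* (SE 0.18, adjusted p = 0.00606), the only member called, beside 0.515% of genes. For *Saa3* it was −0.54 (SE 0.14, adjusted p = 0.0305, under 1.5-fold), and DESeq2 gave adjusted p = 0.356. *Saa2* differed by −0.81 (SE 0.22, adjusted p = 0.0532) and was called without replicate 3 (−1.12, adjusted p = 0.0262), without replicate 3 of IFT88siRNA at 8 h (adjusted p = 0.0330) and with the replicate block (adjusted p = 0.0473), but not without replicate 1 or 2 (adjusted p = 0.675 and 0.301). *Saa1* differed by −0.77 (SE 0.27, adjusted p = 0.180). Without replicate 1 the adjusted p was 0.499 for *Hp* and 0.720 for *Saa3*, and without replicate 2 it was 0.0942 for *Hp*. Without replicate 3 *Saa3* was called too (−0.69, adjusted p = 0.00645). Neither *Hp* nor *Saa3* was below NT by the test at 4 h and both were at 24 h. *Hp* TPM at 4 h was higher in every IFT88siRNA library (11.1, 8.71 and 8.19 against 7.35, 6.90 and 6.71). Its log2 change there was 0.46 (SE 0.14, adjusted p = 0.0872), so the −0.88 for *Hp* combines a higher value at 4 h with a lower one at 24 h.

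The other acute-phase genes of this line are given by lists chosen with earlier results of these data known, and their counts stand beside 50.0% of all tested genes that changed over the NT course. Of 26 other acute-phase proteins, 11 had counts enough to test in NT, and 10 rose and 0 fell over the time course, with a median largest log2 change of 3.46 against −0.21 over all genes. *Saa4*, the constitutive serum amyloid A of liver, went from 0.0929 ± 0.0489 to 6.16 ± 1.03 TPM at 24 h in NT, and the iron reductase *Steap4* from 0.497 ± 0.0608 to 50.2 ± 2.79 TPM (SD, n = 3). The metallothionein *Mt2* went from 370.3 ± 7.74 to 3525 ± 165 TPM, and the copper-binding ferroxidase *Cp* (ceruloplasmin) from 25.1 ± 1.80 to 282 ± 7.84 TPM. At 24 h, by edgeR, none of 10 tested passed both thresholds between the siRNA groups, although *Mt2* had a log2 change of −0.50 (adjusted p = 3.23e-05). *Steap4* was higher in IFT88siRNA at 0 h (1.29, adjusted p = 0.000153) and did not differ detectably at 4 h (0.06, adjusted p = 0.718). Its change from 0 h differed between the siRNA groups (largest −1.45, adjusted p = 7.60e-05).

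Of 9 other genes of the *Serpina3* cluster, 3 were testable and all 3 rose in NT. *Serpina3f* went from 0.114 ± 0.0267 TPM at 0 h to a peak of 47.5 ± 2.04 TPM at 4 h, and was at 23.0 ± 2.42 TPM at 24 h. *Serpina3i* was highest at 24 h, at 14.3 ± 0.914 TPM, and *Serpina3h* stood at 9.49 ± 0.542 TPM (SD, n = 3). Between the siRNA groups *Serpina3f* was lower in IFT88siRNA at 8 h (−0.55, adjusted p = 0.00151, under 1.5-fold), a direction opposite to that of *Serpina3n* and *Serpina3g*. None of the 3 was called over the time course. *Serpina3g* and *Serpina3n* transcripts are 78.6% identical and share 26 of 1729 windows of 75 bases. Exchange of reads between genes of this cluster was not tested.

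Of 27 other complement components, 11 were testable, of which 7 rose and 1 fell (50.0% of all genes changed). *C4b* rose from 5.84 ± 0.449 to 35.7 ± 1.71 TPM, and the C1 proteases *C1ra* and *C1s1* from 144 ± 3.76 to 357 ± 17.6 TPM and from 139 ± 1.001 to 315 ± 23.4 TPM at 24 h (SD, n = 3). *C1s1* was higher in IFT88siRNA at 0 h (0.46, adjusted p = 1.85e-07), under 1.5-fold. Of 16 complement regulators, 7 were testable, of which 3 rose and 2 fell. The C1 inhibitor *Serping1* peaked at 8 h (103 ± 3.94 TPM, from 32.6 ± 1.35) and *Cd59a*, which blocks the membrane attack complex, fell by 1.41 on the log2 scale at 24 h (18.8 ± 1.43 to 7.10 ± 0.444 TPM).

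Of 14 receptors of the members' products, 5 were testable, of which 1 rose and 3 fell (50.0% of all genes changed). *Tlr2*, which serum amyloid A can engage, was 13.8 ± 0.226 TPM at 0 h, 307 ± 13.4 TPM at 1 h, 511 ± 7.05 TPM at 2 h and 41.4 ± 2.84 TPM at 24 h in NT (SD, n = 3), and it was lower in IFT88siRNA at 1 h, at 203 ± 10.2 TPM (−0.59, adjusted p = 3.19e-07). Its change from 0 h differed between the siRNA groups (largest −0.88, adjusted p = 4.60e-08). Of 12 acute-phase transcription regulators, 10 were testable, of which 8 rose and 1 fell. *Nfkbiz* was highest at 1 h, at 890.4 ± 21.3 TPM from 21.9 ± 0.524, and *Cebpd* at 4 h, at 215 ± 23.2 TPM from 14.6 ± 0.694. At 24 h no gene of these lists passed both thresholds between the siRNA groups by edgeR. Over the time course none of the 10 regulators did, and *Nfkbiz* was lower in IFT88siRNA at 0, 1, 4, 8 and 24 h by 0.17 to 0.48 on the log2 scale, under 1.5-fold. *Cebpd* at 24 h was at 158 ± 4.70 TPM in NT and 159 ± 14.2 TPM in IFT88siRNA.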

How the data were processed

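Gene counts were made by the authors by aligning paired-end TruSeq poly(A) reads to GRCm38 with HISAT2 2.1.0 and counting Ensembl 91 genes with featureCounts (Subread 1.6.3) at default settings, which ignore strand and drop reads that overlap several genes. TPM values were estimated by the authors with Salmon 0.9.1 and deposited in a second table. The lane of each library is not given in the sources used here.

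From the counts, edgeR 4.0.16 (TMM, quasi-likelihood test, two-sided, R 4.3.3) was fitted over all genes that passed its filter on low counts. Each siRNA group was fitted over its 18 libraries, each siRNA comparison at a time point on its 6 libraries, and the whole course and the response difference on all 36. Over a course the value given is the largest log2 change of its time points. Genes with a Benjamini-Hochberg adjusted p under 0.05 and a fold over 1.5 were called. DESeq2 1.42.0, limma 3.58.1 on log2(TPM + 0.1) and log2(TPM + 1), other filters, a replicate block and leaving out replicates were alternatives, and the code was tested on simulated counts. Tables and figures used Python 3.11.15 and matplotlib 3.10.9.

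The members and lists were chosen with earlier results of these data known. All 10 members were described. From each list, at most 4 genes called over the NT course with a mean of at least 50 counts were eligible to be named, by largest fold, and other choices among values were made after they were seen. Over all tested genes, same-numbered replicates did not deviate together (correlations −0.133 to 0.223, 2 of 18 pairs over 0.1). The numbers were therefore not used as pairs. No replicates agreed within sampling noise (chi-square per degree of freedom 1.65 to 10.0 over 36 pairs). Intervals cover counting error only. The values of 1 gene of the lists are not reported here.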

Additional observations from a re-analysis of the deposited data

Results flagged for a closer look

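The change from 0 h differed between IFT88siRNA and NT by a test of the difference itself for 3 members. The largest difference over the 5 time points was −0.61 on the log2 scale for *Ptx3* (8 h, joint adjusted p = 0.000277, edgeR), −1.01 for *Hp* (24 h, joint adjusted p = 0.0206) and 0.87 for *Saa3* (4 h, joint adjusted p = 0.0213). *Ptx3* TPM was higher in all 3 IFT88siRNA libraries than in any NT library at 0 h and lower at 8 h. *Hp* and *Saa3* had 1 to 6 counts a library at 0 h, and the part of these low counts in the difference was not tested.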

How the results depend on the processing

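Of the values for single genes, 1751 kept their side of the thresholds, 57 lost a call, 13 gained one and 11 reversed. A change of sign was counted as reversed only where the main or the alternative value was called. Values called in neither were counted as kept even where their sign changed. The number of members called over the IL-1β course stayed at 10 in both siRNA groups leaving out replicates. Between 1 and 2 h in NT it was 3 with limma on log2(TPM + 1), with or without a filter, and 3 to 4 leaving out replicates. Without the fold threshold it was 10 between 8 and 24 h, and 1, 2 and 8 for IFT88siRNA against NT at 0, 8 and 24 h. Over the whole course of that comparison it was 2 with limma on log2(TPM + 0.1), 3 on log2(TPM + 1), 2 with no filter, and 2 to 5 leaving out replicates. At 1 h it was 1 with DESeq2, which gave *Saa3* no adjusted p, 1 with either limma pseudocount, 0 with no filter, and 1 to 2 leaving out replicates. At 2 h it was 0 with limma in all 3 forms, 2 with no filter beyond 1 count, 2 with all 36 libraries in 1 model, and 0 to 2 leaving out replicates. At 8 h it was 0 to 1 leaving out replicates. The alternative without replicate 3 of IFT88siRNA at 8 h, chosen after seeing the data, gave 1. At 24 h it was 2 with limma in all 3 forms and 1 to 2 leaving out replicates. For the response difference it was 0 with limma in all 3 forms and 1 to 3 leaving out replicates.

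With the replicate block, 2 members were called at 2 h, *Saa3* being the one gained (−0.86, adjusted p = 0.00371), and the difference at 24 h minus that at 4 h was called for 2 members in place of 1, *Saa2* being gained (−0.80, adjusted p = 0.0473). No other count moved by over 1.5 times. Over all tested genes the numbers did not pair the samples. At 2 h, however, *Saa3* and *Lcn2* TPM was lowest in replicate 2 and highest in replicate 3 of both groups.

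Reversed values were *Cfb* at 2 h against 0 h in NT (−0.64 and −0.59 with limma at pseudocounts 0.1 and 1), *Hp* over the siRNA course (−0.45 with limma on log2(TPM + 1)) and the *Saa3* response difference (−0.60 with the same). Leaving out replicates, *Saa2* over the siRNA course ran from −2.50 to 3.17, the *Saa3* response difference from −1.50 to 1.45 and that of *Hp* from −1.46 to 0.63. The siRNA course and the response difference are given as the largest of several time points, so a reversal there can be a change of time point.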
